A study of Mus musculus with 68 samples.

Results

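Alx1, Alx4, Prrx1, Prrx2 and Shox2 are 5 homeobox genes of the paired class that are active in embryonic mesenchyme, the loose connective tissue from which the facial skeleton forms. They were chosen by name, as the rows of the deposited expression table whose Ensembl identifiers carry these symbols. All 5 were found among the 21948 genes of the table, and all 5 passed the filter on low values. RNA was sequenced from whole pharyngeal arches, bulges on each side of the embryo's throat that are filled with mesenchyme. PA1 forms the jaws, and PA2, the arch behind it, forms parts of the middle ear and hyoid. Arches were dissected by hand from mouse embryos of the strain CBA/Ca/J x C57BL/10 at 4 stages spaced evenly from E9.0 to E10.5, where E counts days of embryonic development. Embryos were wildtype or carried the genotype label Hoxa2-/-, and both labels have the same strain entry. From the youngest stage to the oldest, wildtype PA1 had 5, 5, 5 and 3 libraries and wildtype PA2 4, 4, 5 and 3. With the label Hoxa2-/-, each arch had 4, 5, 5 and 3. Both arches were available for 33 of the 35 embryos behind the 68 libraries. Replicates are different embryos.

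Homeodomain proteins of the paired class bind DNA at short sites built on the letters TAAT, and many bind as dimers to a pair of such sites facing each other. Prrx1 and Prrx2 are paralogs that mark cranial and limb mesenchyme, and together they are needed for the lower jaw. Alx1 and Alx4 are best known from the mesenchyme of the frontonasal region and upper face, and Alx4 also from the limb bud. Shox2 acts in the palate, the limb skeleton and the pacemaker of the heart. Hoxa2 is the Hox gene of PA2: in its absence, PA2 mesenchyme is known to form skeletal elements of PA1 type.

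A window before the start site was available for 3 of the 5 genes: Prrx1, Prrx2 and Shox2. That of Prrx2 overlaps an annotated exon, so the stretches of Prrx1 and Shox2 are shown. Each holds 190 bases on GRCm38.p6, from position -250 to position -61 relative to the RefSeq start, written 5′ to 3′ on the gene's own strand, and neither overlaps an annotated exon of GENCODE M21. Capitals mark TAAT on either strand and TATAAA on either strand. The Prrx1 stretch lies at chr1:163313711-163313900 and the Shox2 stretch at chr3:66981832-66982021, both on the minus strand.
Prrx1: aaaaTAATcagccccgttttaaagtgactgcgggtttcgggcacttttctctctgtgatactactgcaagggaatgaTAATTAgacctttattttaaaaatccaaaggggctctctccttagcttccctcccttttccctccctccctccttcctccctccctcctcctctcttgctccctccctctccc
Shox2: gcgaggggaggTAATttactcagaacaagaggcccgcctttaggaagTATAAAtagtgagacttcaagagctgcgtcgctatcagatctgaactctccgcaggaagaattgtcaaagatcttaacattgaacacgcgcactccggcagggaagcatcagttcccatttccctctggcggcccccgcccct

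Prrx1 held 3 matches to TAAT, of which 2 overlap in the palindrome TAATTA, and no TATAAA. Shox2 held 1 match to TAAT and 1 to TATAAA. Over 32851 RefSeq windows of the same length, 48.9% held TAAT on either strand and 8.73% held TATAAA, so a match to TAAT is common. None of the matches in the 2 stretches belonged to a facing pair of sites, TAAT and its reverse complement ATTA set 3 bases apart, which 0.384% of windows held. The corresponding Prrx2 window, at chr2:30845117-30845306, is not printed because it overlaps an annotated Prrx2 exon, and it held none of the 3 motifs. Its GC content was 69.5%, higher than in 90.9% of windows, against 48.9% for Prrx1 and 52.1% for Shox2. Matches are a description of letters, and no binding was measured here. Alx1 (ENSMUSG00000036602, chr10:102998707-103030215, minus strand) and Alx4 (ENSMUSG00000040310, chr2:93642384-93681339, plus strand) are named by position only. The other genes are Prrx1 (ENSMUSG00000026586, chr1:163245119-163313710, minus strand), Prrx2 (ENSMUSG00000039476, chr2:30834972-30881251, plus strand) and Shox2 (ENSMUSG00000027833, chr3:66971727-66981771, minus strand), all on GRCm38. Of their exon bases, 4.22% of Alx1 are shared with Gm17028 and 4.62% of Shox2 with Rsrc1 on the opposite strand. Reads in those bases are uncertain, and what share of each gene's reads they make up was not measured.

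Each library held between 8912251 and 20619153 recovered reads. The targeted gene went against its label: Hoxa2 in PA2 stood at 20.2 to 23.1 CPM (the table's unit: reads of a gene relative to the scaled total of its library) in wildtype and 16.8 to 36.3 with the label Hoxa2-/- at E9.0, and at 54.5 to 63.3 and 116 to 147 at E10.5. The counts are for the gene as a whole, and which part of Hoxa2 the allele removes is not given in the sources used here, so "label" is written throughout. The libraries also fell into 2 sets that do not follow the label alone. Ski stood at 9.28 to 22.8 CPM in the 34 libraries labelled Hoxa2-/-, at 9.52 to 15.5 in the 10 wildtype libraries of E10.0, and at 26.3 to 108 in the 24 wildtype libraries of the other 3 stages. Except at E10.0, the label and this division cannot be told apart. At E10.0 both labels lay on the same side of it. Wildtype E10.0 was therefore not tested against other wildtype stages. In 6 libraries yolk sac markers summed to 27.1 to 217 CPM, against a median of 2.29 over all 68, and results are given without them where they matter. Red cell markers summed to 54244 CPM in wildtype PA2 E9.0 replicate 2 and to at most 6356 in every other library. Without it, no member test changed direction or its side of the threshold. Arch mesenchyme markers (7 of 7 in the table) were detected in every group, with a summed level from 211 to 855 CPM over the libraries. In bulk tissue, fewer cells of a type and less RNA per cell cannot be told apart.

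**Figure D1:**
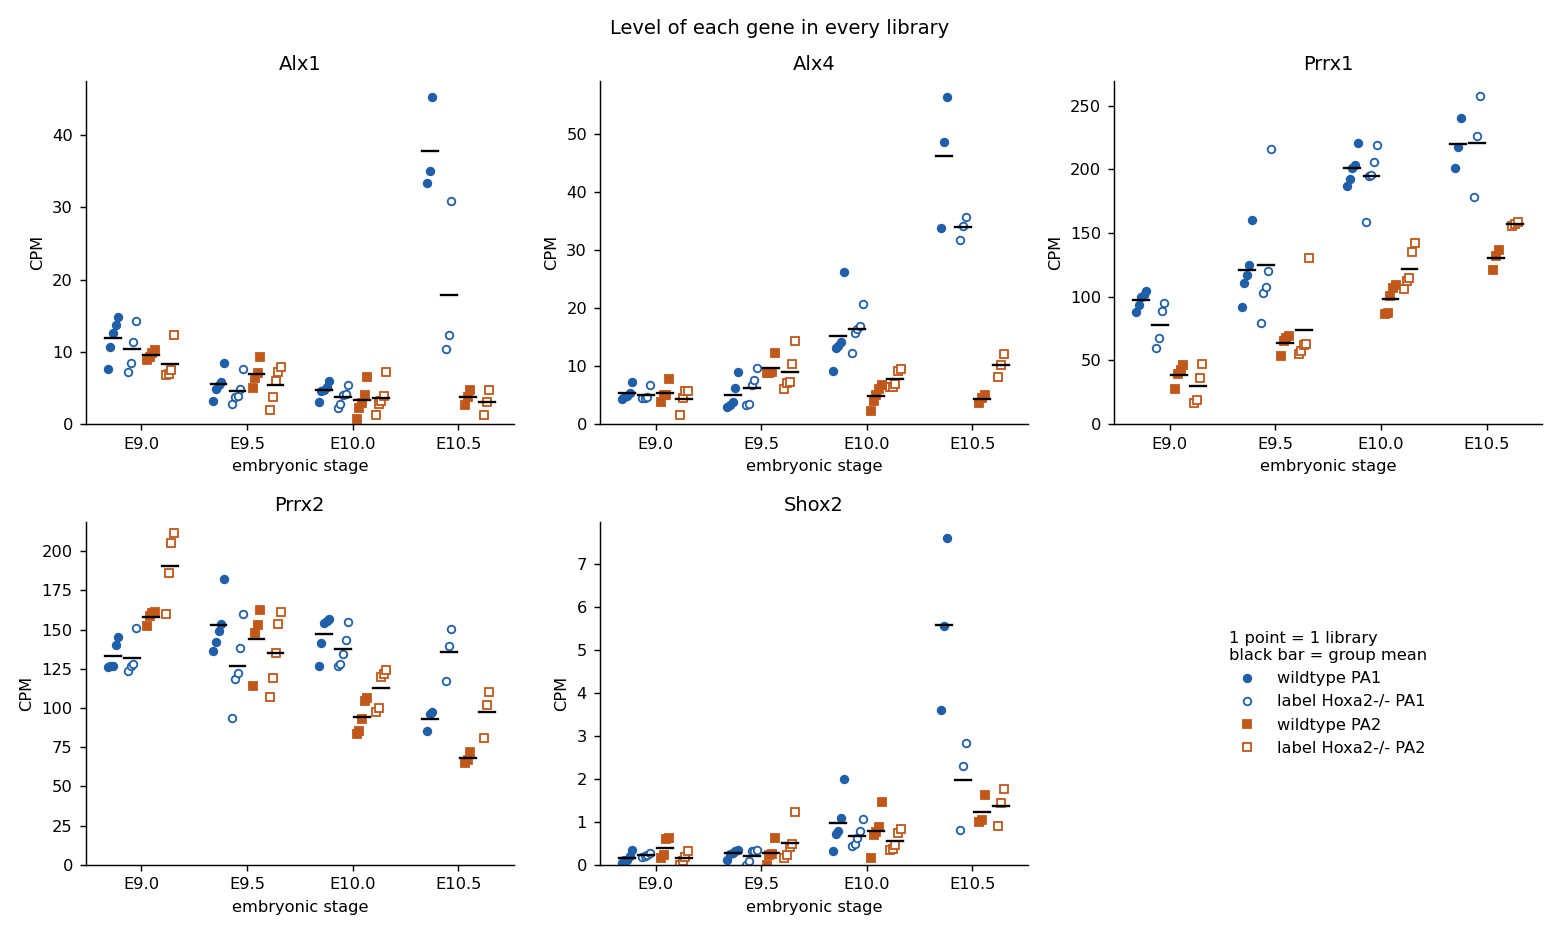
Level of Alx1, Alx4, Prrx1, Prrx2 and Shox2 in CPM (vertical axis, starting at 0 and scaled per gene) by embryonic stage (horizontal axis). Each point is 1 library, circles are PA1 and squares PA2, filled symbols are wildtype and open symbols the label Hoxa2-/-, and black bars are group means. Alx1, Alx4 and Shox2 reach their highest points in wildtype PA1 at E10.5, Prrx1 climbs in both arches, and Prrx2 falls in PA2.

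Per kilobase of annotated exon, a scale for comparing levels of different genes, Prrx2 was the highest of the 5 and Shox2 the lowest in wildtype PA1 at E10.5. Prrx2 stood at 47.4 ± 3.3 CPM per kb (SD, n = 3) and Prrx1 at 19.9 ± 1.8. The length counts every annotated exon base, 11.1 kb for Prrx1 and 1.96 kb for Prrx2. Which transcripts were present was not measured. Before division by length Prrx1 was the higher, at 220 against 92.9 CPM, so the order of these 2 genes rests on the lengths. Alx1 stood at 6.58 ± 1.1 CPM per kb and Alx4 at 6.56 ± 1.6, which differed by less than their spread. Shox2 stood at 1.69 ± 0.6 CPM per kb. All values below are CPM, or differences of log2(CPM + 1), and are compared between groups for 1 gene at a time.

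Ordered by mean level over the 16 groups, most neighbours overlapped. Of the 15 pairs of groups next to each other in that order, the ranges of the libraries did not overlap in 1 pair for Alx1, Alx4, Prrx2 and Shox2 and in 3 pairs for Prrx1. For Alx1 and Shox2 the separated pair was the top one: wildtype PA1 at E10.5 lay above PA1 labelled Hoxa2-/- of the same stage. For Alx4 those 2 groups shared the top and overlapped, and the next group, PA1 labelled Hoxa2-/- at E10.0, lay below both. The highest mean was 12.4 times the lowest for Alx1, 10.6 times for Alx4, 7.41 times for Prrx1 and 2.81 times for Prrx2. For Shox2 the highest mean was 5.58 CPM, and the lowest, 0.151 CPM in PA2 labelled Hoxa2-/- at E9.0, rested on 0 to 4 reads per library.

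PA2 was then compared with PA1 of the same label and stage, which asks how the arches differ. In wildtype embryos, 9 of 20 member tests passed the threshold, an adjusted p of 0.05 in a limma fit over all 18428 genes kept. Over the same 4 comparisons 13.1% of all tests passed. Of the members' tests 1 was higher and 8 were lower in PA2, where 7.06% and 6.07% of all tests were. With the label Hoxa2-/-, 7 of 20 passed against 9.94% of all tests, 1 higher and 6 lower against 5.58% and 4.35%. By stage, 1, 2, 3 and 3 of the 5 genes passed in wildtype from E9.0 to E10.5, while the share of all genes that passed was 18.7%, 26.3%, 5.94% and 1.52%. With the label Hoxa2-/- it was 2, 1, 2 and 2 genes, against 24.6%, 9.58%, 4.23% and 1.37%.

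The Alx genes encode transcription factors of facial mesenchyme, and both came to differ strongly between the arches at the last stage. At E10.5 wildtype PA1 libraries held 33.8, 56.5 and 48.7 CPM of Alx4 and wildtype PA2 libraries 4.97, 4.42 and 3.71. With the label Hoxa2-/-, PA1 held 35.8, 34.2 and 31.8 CPM and PA2 12.1, 10.2 and 8.20. The arches did not overlap under either label, and every PA2 library with the label lay above every wildtype PA2 library. The log2 difference of PA2 against PA1 was -3.12 ± 0.33 in wildtype (SE, adjusted p 1.76e-10) and -1.66 ± 0.33 with the label (0.000851). At E10.0 the order was already present: wildtype PA1 held 26.2, 9.11, 14.2, 13.2 and 13.5 CPM and wildtype PA2 2.22, 3.92, 6.77, 6.11 and 5.01, again without overlap. The log2 difference was -1.47 ± 0.25 (adjusted p 2.73e-05), and -1.002 ± 0.25 with the label (0.0093).

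At E9.5 the arches stood the other way round. Wildtype PA1 held 2.96, 6.16, 3.21, 3.85 and 8.95 CPM of Alx4 and wildtype PA2 12.3, 8.85, 8.94 and 8.81. Only PA1 replicate 5 reached the PA2 libraries. The log2 difference was 0.91 ± 0.27 (adjusted p 0.00905). With the label Hoxa2-/- the libraries of the arches overlapped at this stage, with 3.33 to 9.73 CPM in PA1 and 6.14 to 14.4 in PA2, and the difference of 0.52 ± 0.25 did not pass (0.198). At E9.0 all 17 libraries lay between 1.51 and 7.72 CPM, and no difference between the arches passed under either label. Heart muscle markers had the higher median in wildtype PA2 at E9.5, with overlapping libraries. Of that list 5 of 6 were in the table, and they summed to 4.82 to 106 CPM in PA1 (median 6.63) and 20.9 to 598 in PA2 (median 75.5). Their part in the result was not tested.

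Alx1 differed between the arches at E10.5 only among the 4 stages tested. Wildtype PA1 libraries held 33.3, 45.3 and 35.0 CPM and wildtype PA2 libraries 3.72, 4.74 and 2.66. With the label, PA1 held 30.9, 12.3 and 10.4 CPM and PA2 3.13, 1.28 and 4.77. Replicate 1 of PA1 with the label stood near the wildtype libraries and the other two well below it, and all 6 PA1 libraries exceeded all 6 PA2 libraries. The log2 difference was -3.06 ± 0.39 in wildtype (adjusted p 6.07e-08) and -2.16 ± 0.39 with the label (0.000213). Before E10.5 the group means ran from 4.69 to 11.9 CPM in wildtype PA1 and from 3.28 to 9.55 in wildtype PA2, and none of the 3 comparisons passed. Frontonasal markers moved the other way. Of that list 3 of 4 were in the table, and they summed to 12.8 to 17.0 CPM in wildtype PA1 and 31.5 to 36.4 in wildtype PA2 at E10.5, where Sp8 of that list was at 0. Limb markers (3 of 3) summed to 2.89 to 4.96 and 1.95 to 2.48 CPM in the same groups. The part of either tissue in the result was not tested.

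**Figure D2:**
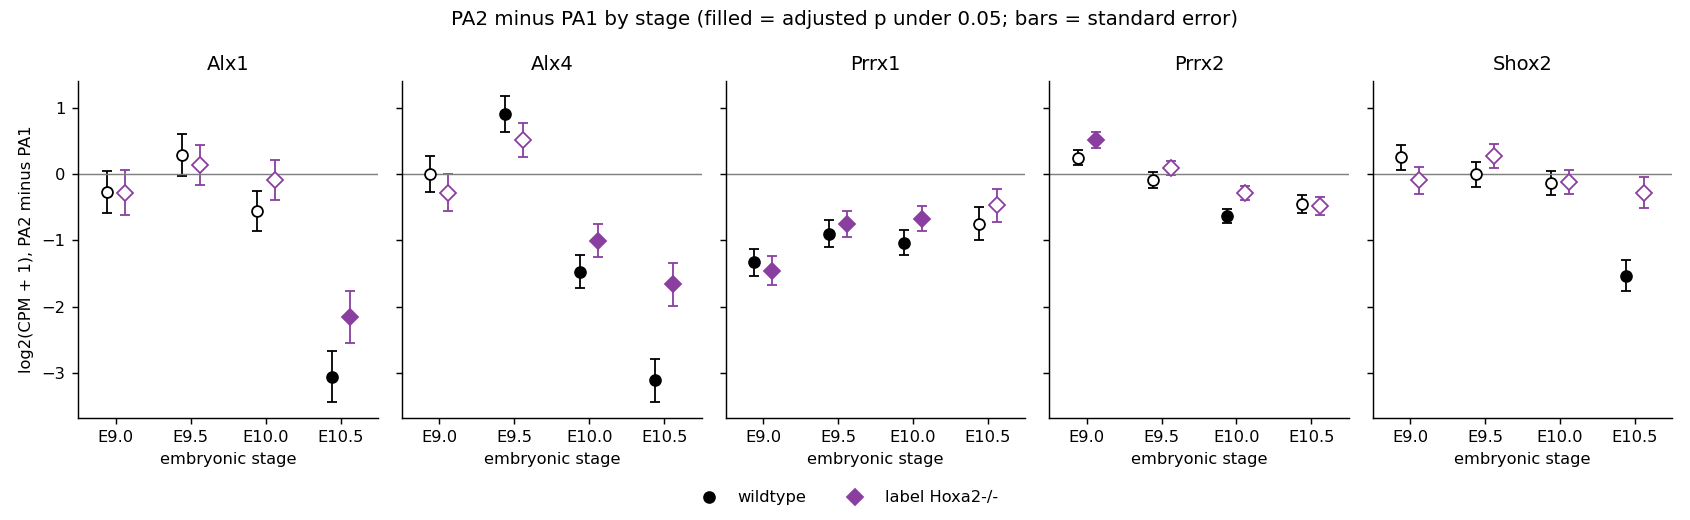
Difference between PA2 and PA1 in log2(CPM + 1) (vertical axis, 0 marked by a line) by embryonic stage (horizontal axis) for each gene. Circles are wildtype and diamonds the label Hoxa2-/-, bars are standard errors, and filled symbols passed an adjusted p of 0.05. Alx1 and Alx4 drop to about -3 in wildtype at E10.5, Prrx1 lies below 0 at all stages, and Shox2 is filled only in wildtype at E10.5.

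Prrx1 was lower in PA2 from the first stage on, earlier than the Alx genes. At E9.0 wildtype PA1 libraries held 99.95, 101, 104.5, 88.1 and 93.9 CPM and wildtype PA2 libraries 39.2, 42.6, 46.1 and 27.5. With the label PA1 held 60.0, 88.6, 67.8 and 94.7 CPM and PA2 16.7, 47.6, 19.0 and 35.9. The arches did not overlap under either label. The log2 difference was -1.33 ± 0.20 in wildtype (adjusted p 2e-06) and -1.46 ± 0.22 with the label (9.21e-07). It was -0.90 ± 0.20 at E9.5 (0.000972) and -1.03 ± 0.19 at E10.0 (0.000126) in wildtype.

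At E10.5 the libraries of the arches still stood apart in wildtype, with 201.4 to 241 CPM of Prrx1 in PA1 and 121 to 137 in PA2. The log2 difference of -0.75 ± 0.25 did not pass over all groups (adjusted p 0.159), and it passed with each embryo as a block, where PA1 and PA2 of the same embryo are compared (0.00075). With the label it was -0.75 ± 0.19 at E9.5 (0.00623). There PA1 and PA2 replicate 4, from the same embryo, stood high at 216 and 131 CPM, and the difference without PA1 replicate 4 was -0.54 (adjusted p 0.068). It did not pass either when no other group entered the fit (0.142). At E10.0 with the label it was -0.67 ± 0.19 (0.0305), and it did not pass without PA1 replicate 2, 3 or 4, without PA2 replicate 1, 4 or 5 (adjusted p 0.0605 to 0.0895), or without the libraries with yolk sac markers (0.112). At E10.5 with the label it was -0.47 ± 0.25 (0.518).

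Summed arch mesenchyme markers also lay lower in PA2, without overlap at 3 of the 4 wildtype stages. In wildtype their summed level was 451 to 488 CPM in PA1 and 211 to 280 in PA2 at E9.0, 586 to 823 and 418 to 541 at E10.0, and 704 to 855 and 589 to 634 at E10.5. Neuron markers (7 of 8 in the table) were higher in PA2, with 28.8 to 47.1 CPM in PA1 and 101 to 201.2 in PA2 at E9.0. Markers of core mesoderm and muscle progenitors (6 of 6) were higher in PA2 without overlap at all 4 wildtype stages, at 40.03 to 60.7 and 78.7 to 131 CPM at E9.0 and 21.3 to 26.0 and 50.02 to 56.7 at E10.5. The part of any of these groups in the differences between arches was not tested.

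Prrx2, the paralog, was not lower in PA2 at E9.0. At E9.0 wildtype PA1 libraries held 126, 140, 127, 126 and 145 CPM of Prrx2 and wildtype PA2 libraries 161, 152, 161 and 159. All PA2 libraries lay above all PA1 libraries, but the log2 difference of 0.25 ± 0.11 did not pass (adjusted p 0.118), except when no other group entered the fit (0.0218). With the label PA1 held 123 to 151 CPM and PA2 160, 186, 211 and 205, and the difference of 0.52 ± 0.12 passed (0.000866). At E9.5 the differences were -0.09 ± 0.11 in wildtype and 0.10 ± 0.11 with the label (0.629 and 0.628). At E10.0 Prrx2 was lower in wildtype PA2, with 83.6 to 106 CPM against 127 to 157 in PA1 and a log2 difference of -0.63 ± 0.11 (2.05e-05). With the label the difference at E10.0 was -0.29 ± 0.11 (0.118). At E10.5 it was -0.44 ± 0.14 in wildtype and -0.48 ± 0.14 with the label (adjusted p 0.107 and 0.071), and both passed with the embryo as a block (0.0384 and 0.0238).

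Shox2 was close to the limit of detection until E10.0. At E9.0, 11 of 17 libraries held at most 3 reads and 1 held 0, and at E9.5, 6 of 19 held at most 3 reads and 2 held 0. In these libraries 3 reads correspond to 0.140 to 0.328 CPM, and this floor covers counting error only. At E10.0 the 20 libraries held 0.157 to 2.00 CPM. At E10.5 wildtype PA1 libraries held 5.55, 7.59 and 3.59 CPM, from 69 to 144 reads, and wildtype PA2 libraries 1.03, 1.63 and 0.998. With the label PA1 held 2.83, 2.29 and 0.816 CPM and PA2 1.75, 1.44 and 0.911. Wildtype PA1 stood above every other library of the stage. The log2 difference between arches was -1.53 ± 0.23 in wildtype (adjusted p 5.11e-06) and -0.28 ± 0.23 with the label (0.753). The +1 inside the logarithm understates changes of a gene this low.

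Next, E10.5 was compared with E9.0 within each arch and label. Of 20 member tests 17 passed, 12 higher and 5 lower at E10.5. Of all tests over these 4 comparisons 35.4% passed, 17.3% higher and 18.1% lower. Alx4 rose in wildtype PA1 by 2.89 ± 0.29 on the log2 scale (adjusted p 6.06e-12), in PA1 with the label by 2.53 ± 0.30 (2.87e-09) and in PA2 with the label by 1.15 ± 0.30 (0.00255, which became 0.0561 when no other group entered the fit). In wildtype PA2 the difference was -0.23 ± 0.30 (0.588). Shox2 rose in all 4 comparisons, by 2.46 ± 0.21 in wildtype PA1 (2.32e-14), 0.67 ± 0.22 in wildtype PA2 (0.0119), 1.22 ± 0.22 in PA1 with the label (1.42e-05) and 1.03 ± 0.22 in PA2 with the label (0.000176). Without wildtype PA2 E10.5 replicate 2 the wildtype PA2 rise was 0.54 and did not pass (adjusted p 0.0918).

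Alx1 had opposite directions in the arches. It rose by 1.61 ± 0.35 in wildtype PA1 (adjusted p 0.00014), and fell by 1.19 in wildtype PA2 (SE 0.36, 0.00779) and by 1.27 in PA2 with the label (SE 0.36, 0.00529). In PA1 with the label the difference was 0.62 ± 0.36 (0.199). The fall did not pass without wildtype PA2 E10.5 replicate 3 (-1.02, adjusted p 0.0512), nor, with the label, without PA2 E10.5 replicate 2 (-0.90, 0.09). In wildtype PA1 the mean went from 11.9 ± 2.8 CPM (SD, n = 5) at E9.0 through 5.56 ± 1.91 (n = 5) and 4.69 ± 1.02 (n = 5) to 37.9 ± 6.47 (n = 3), so the rise followed a dip. Frontonasal markers (3 of 4 in the table) also rose in wildtype PA1. They stood at 2.56 to 4.97 CPM at E9.0 and 12.8 to 17.0 at E10.5. In wildtype PA2, where Alx1 fell and Alx4 did not pass, they rose as well, at 1.85 to 11.6 and 31.5 to 36.4 CPM. Their part was not tested. The dip between E9.0 and E9.5 was -0.997 ± 0.30 (0.0349). It did not pass with a pseudocount of 0.25 (0.0511) or without the libraries with yolk sac markers (0.082). Nor did it pass without any one of 7 of the 10 libraries (0.0552 to 0.0871). These were replicates 1, 3, 4 and 5 of E9.0 and replicates 1, 4 and 5 of E9.5. With the label the step from E10.0 to E10.5 in PA1 was 1.89 ± 0.35 (0.00314), and 1.44 without PA1 E10.5 replicate 1 (adjusted p 0.234).

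The Prrx paralogs went opposite ways in 3 of these 4 comparisons. Prrx1 rose in all 4 comparisons, by 1.16 ± 0.22 in wildtype PA1 (adjusted p 2.25e-05), 1.74 ± 0.23 in wildtype PA2 (2.05e-08), 1.502 ± 0.23 in PA1 with the label (1.02e-06) and 2.49 ± 0.23 in PA2 with the label (2.14e-12). Prrx2 fell by 0.51 in wildtype PA1 (SE 0.12, 0.000613), by 1.21 in wildtype PA2 (SE 0.13, 4.76e-11) and by 0.96 in PA2 with the label (SE 0.13, 3.36e-08). In PA1 with the label it differed by 0.04 ± 0.13 (0.871), with 123 to 151 CPM at E9.0 and 117 to 151 at E10.5. The summed arch mesenchyme markers in wildtype PA2 were at 211 to 280 CPM at E9.0 and 589 to 634 at E10.5. Of that list Pdgfra rose and Tfap2a fell past the threshold, so its genes did not all move together. Epithelial markers (6 of 6) were at 552 to 870 CPM at E9.0 and 263 to 305 at E10.5. The part of these markers in the changes with stage was not tested.

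Between neighbouring stages 18 of 50 member tests passed, 13 higher and 5 lower at the later stage, against 11.8% of all tests, 5.95% higher and 5.85% lower. In wildtype, 1 of the 5 genes passed in each arch from E9.0 to E9.5, against 1241 and 1231 of 18428 genes in PA1 and PA2. In PA1 it was Alx1, with the limits given above. In PA2 it was Prrx1, higher by 0.72 (adjusted p 0.0313). That call was lost in 4 of 8 fits that left out 1 library (adjusted p 0.0541 to 0.137). Most wildtype calls lay in the last and longer interval tested, E9.5 to E10.5. In PA1 all 5 genes passed there, where 40.9% of all genes did: Alx1 rose by 2.60 ± 0.35, Alx4 by 3.03 ± 0.29, Prrx1 by 0.88 ± 0.22 and Shox2 by 2.34 ± 0.21, and Prrx2 fell by 0.70 (SE 0.12). In PA2 4 of 5 passed, against 34.3%: Prrx1 rose by 1.02 ± 0.23 and Shox2 by 0.81 ± 0.22, whereas Prrx2 fell by 1.06 (SE 0.13) and Alx4 by 0.99 (SE 0.30). Adjusted p was at most 0.00858 in these 9 tests. The fall of Alx4 in wildtype PA2 followed its level of 9.72 ± 1.71 CPM (SD, n = 4) at E9.5, the highest of the 4 wildtype PA2 stages. With the label, PA2 held 9.01 ± 3.38 CPM at E9.5 and 10.2 ± 1.96 at E10.5, an interval that was not tested. From E9.0 to E9.5 in PA2 with the label, Alx4, Prrx1 and Prrx2 passed, but not with only the compared groups (adjusted p 0.218, 0.166 and 0.176). Calls over all genes went from 3119 to 5 in that fit. From E9.5 to E10.0 with the label, Prrx1 passed in both arches, but not with only the compared groups (0.108 in PA1 and 0.0709 in PA2). In PA1 it was also lost in 5 of 10 fits that left out 1 library (0.0511 to 0.101).

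The ratio of Prrx1 reads to Prrx2 reads in the same library removes depth and scaling. It is not corrected for the longer exons of Prrx1, so only its change between groups is read. From the youngest stage to the oldest it averaged 0.736 ± 0.0719, 0.803 ± 0.200, 1.38 ± 0.131 and 2.37 ± 0.108 in wildtype PA1 (SD, n = 5, 5, 5 and 3). In wildtype PA2 it averaged 0.246 ± 0.0520, 0.455 ± 0.113, 1.06 ± 0.217 and 1.92 ± 0.205 (n = 4, 4, 5 and 3). Wildtype E10.0 lies on the other side of the library division, so its place between the other stages is not read. The ratio climbed from E9.0 to E10.5 in both arches, and the groups of these stages did not overlap in either. With the label it averaged 0.588 and 1.62 in PA1 and 0.156 and 1.64 in PA2 at E9.0 and E10.5. At E10.5 the 3 wildtype PA1 libraries, at 2.26 to 2.48, lay above the 3 of PA1 with the label, at 1.504 to 1.85. At that stage the label and the library division cannot be told apart.

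**Figure D3:**
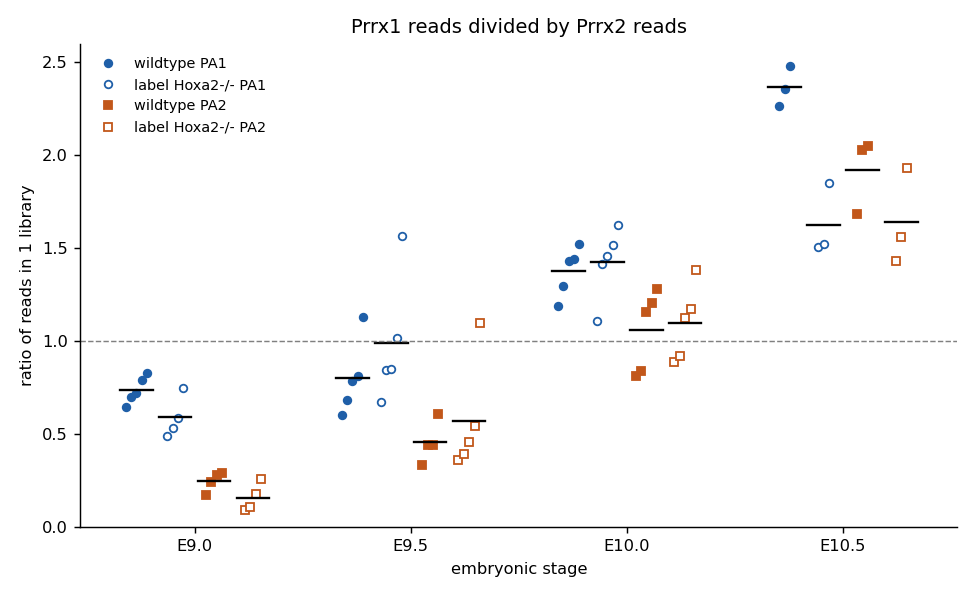
Reads of Prrx1 divided by reads of Prrx2 in the same library (vertical axis, starting at 0, with a dashed line at 1) by embryonic stage (horizontal axis). Points are libraries, circles PA1 and squares PA2, filled wildtype and open the label Hoxa2-/-, and black bars are group means. All libraries of E9.0 lie below 1 and all libraries of E10.5 above it.

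Whether the change between E9.0 and E10.5 was unequal in the arches was tested directly, as the difference of the differences. In this comparison 7 of 10 member tests passed, all of them lower in PA2 than in PA1, where 5.34% of all tests passed and 2.74% were lower. In wildtype it was -2.79 ± 0.50 for Alx1 (adjusted p 0.000188), -3.12 ± 0.42 for Alx4 (5.34e-07), -0.70 ± 0.18 for Prrx2 (0.0144) and -1.79 ± 0.30 for Shox2 (6.76e-05). For Prrx1 it was 0.58 ± 0.32 (0.409). With the label it was -1.88 ± 0.51 for Alx1 (0.017), -1.38 ± 0.43 for Alx4 (0.0381) and -0.999 ± 0.18 for Prrx2 (0.000306). Shox2 with the label gave -0.18 ± 0.31 (0.782), and Prrx1 gave 0.99 ± 0.33 (0.0537), which passed with the embryo as a block (0.000689). The Alx1 value with the label was -1.43 without PA1 E10.5 replicate 1 (adjusted p 0.126), -1.52 without PA2 E10.5 replicate 2 (0.0884), and did not pass with the compared groups alone (0.0757). The Alx4 value with the label did not pass in 11 of 14 fits that left out 1 library (adjusted p 0.0515 to 0.0974). These were the fits without replicate 1, 2 or 3 of PA1 E9.0, any of PA1 E10.5, replicate 1, 2 or 4 of PA2 E9.0, or replicate 2 or 3 of PA2 E10.5. Nor did it pass with a pseudocount of 0.25 (0.07), by edgeR on the recovered reads (0.0538) or with only the compared groups (0.0864).

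Finally, the label Hoxa2-/- was compared with wildtype within each arch and stage. In PA2, 2 of 20 member tests passed, both higher with the label, against 7.23% of all tests in either direction and 3.7% higher. In PA1, 3 of 20 passed against 7.18%, 1 higher and 2 lower against 3.42% and 3.75%. The members' counts were thus not far from the background. The PA2 count was 1 without wildtype E10.5 replicate 1 or 3 or without E10.5 replicate 1 or 3 with the label, and 0 without replicate 2 of either group. The PA1 count was 1 without E10.5 replicate 3 with the label. The 2 calls in PA2 fell at E10.5, where 10.3% of all genes passed. At E10.0, the stage at which both labels lay on the same side of the library division, none of the 5 genes passed by limma or by edgeR in either arch. Of all genes, 0.0814% passed there in PA2 and 0% in PA1. At an unadjusted p under 0.05 it was 2 of the 5 genes in PA2, against 7.71% of all genes, and 0 in PA1, against 2.3%.

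At E10.5 Alx4 in PA2 was 1.05 ± 0.33 higher with the label on the log2 scale (adjusted p 0.0277), from the library values given above, which did not overlap. The call was lost without any wildtype library or without replicate 1 or 2 with the label (adjusted p 0.0507 to 0.116, log2 differences 0.92 to 1.13). At E10.0 it was 0.63 ± 0.25 (0.574), with 2.22 to 6.77 CPM in wildtype and 6.39 to 9.56 with the label. Prrx2 in PA2 at E10.5 held 66.8, 65.2 and 71.8 CPM in wildtype and 80.7, 102 and 110 with the label. The groups did not overlap, and the log2 difference was 0.50 ± 0.14 (0.0119). It did not pass without wildtype replicate 2 or replicate 2 or 3 with the label (adjusted p 0.0536 to 0.0994, lowest value 0.41). At E10.0 it was 0.25 ± 0.11 (0.589). Arch mesenchyme markers overlapped between the labels in PA2 at E10.5, at 589 to 634 CPM in wildtype and 518 to 613 with the label. Endothelial markers (5 of 5) moved with the label there, at 141 to 152 and 170.2 to 209 CPM without overlap, and their part in the Alx4 and Prrx2 differences was not tested.

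In PA1 at E10.5, where 3.05% of all genes passed, Shox2 was lower with the label, with a log2 difference of -1.17 ± 0.23 (adjusted p 0.00134). It did not pass with a pseudocount of 0.25 (0.0553), by edgeR (0.0874) or without replicate 3 with the label (-0.84, 0.0721). Prrx2 was 0.54 ± 0.14 higher (0.0187), with 85.6, 97.1 and 96.1 CPM in wildtype and 117, 151 and 139 with the label. That call was lost without wildtype replicate 1 or replicate 2 or 3 with the label (adjusted p 0.0912 to 0.16, lowest value 0.46). Alx1 differed by -1.19 ± 0.39 (0.0822) although no library overlapped, and passed with a pseudocount of 5 (-1.004, 0.00636) and without replicate 1 with the label (-1.65, 0.015). At E9.5 Prrx2 in PA1 differed by -0.28 ± 0.11 (0.0468) with overlapping libraries, 136 to 182 CPM in wildtype and 93.3 to 160 with the label. Without wildtype replicate 1, 3 or 4 or replicate 2, 3 or 5 with the label it did not pass (adjusted p 0.0691 to 0.247), and the value without replicate 3 with the label was -0.18. It did not pass without the filter (0.0536) or with only the compared groups (0.168) either. Markers of core mesoderm and muscle progenitors (6 of 6) were lower with the label in PA1 at E10.5. They stood at 21.3 to 26.0 CPM in wildtype and 14.7 to 19.9 with the label, without overlap. Epithelial markers (6 of 6) were higher with the label there, at 314 to 362 and 372 to 395 CPM, also without overlap. Macrophage markers (4 of 4) overlapped, at 11.7 to 15.1 CPM in wildtype and 5.17 to 12.4 with the label. The part of these markers was not tested.

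Whether the label difference was unequal in the 2 arches was tested as well. None of 20 member tests passed by limma or by edgeR, and 0.0163% of all tests passed by limma. At an unadjusted p under 0.05 it was 3 of 20, against 3.77% of all tests. At E10.5 the difference of the differences was 1.46 ± 0.46 for Alx4 (adjusted p 0.861) and 1.25 ± 0.33 for Shox2 (0.341). Alx4 passed when the fit held these 4 groups alone (0.0433), and Shox2 passed with the embryo as a block (0.0294) and with a pseudocount of 5 (0.63, adjusted p 0.00279).

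**Figure D4:**
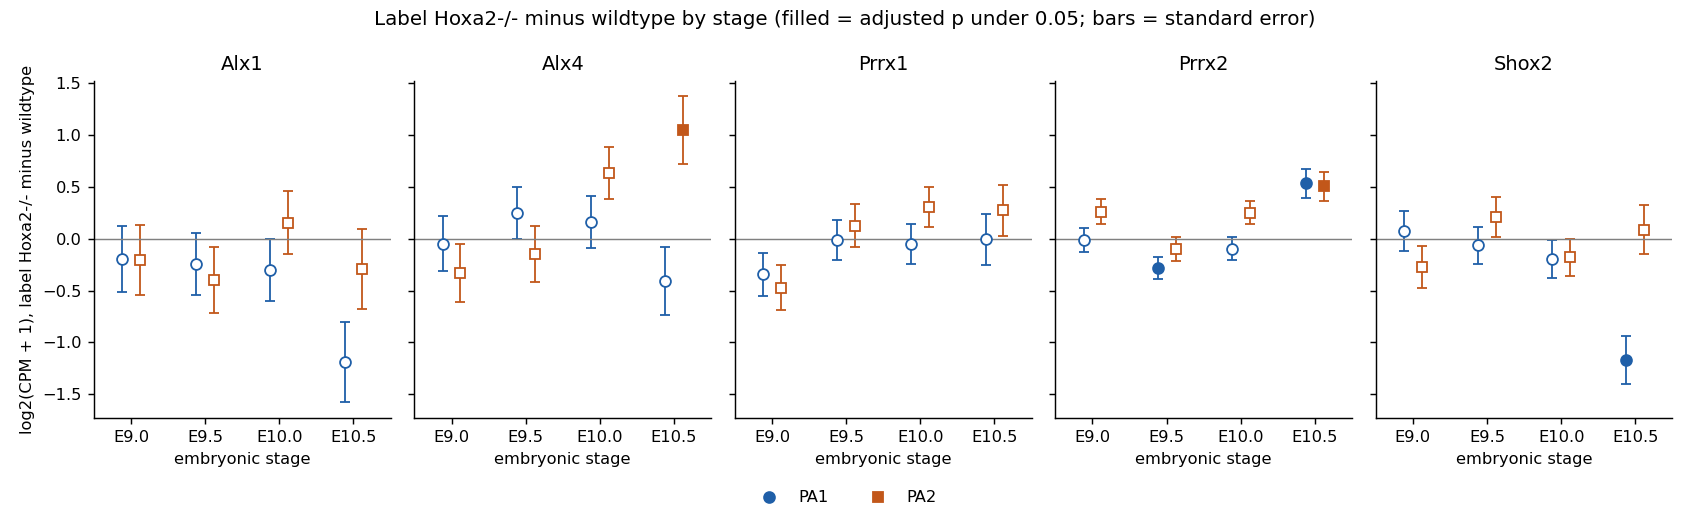
Difference between the label Hoxa2-/- and wildtype in log2(CPM + 1) (vertical axis, 0 marked by a line) by embryonic stage (horizontal axis) for each gene. Circles are PA1 and squares PA2, bars are standard errors, and filled symbols passed an adjusted p of 0.05. Filled symbols appear for Alx4 and Prrx2 in PA2 at E10.5, for Shox2 and Prrx2 in PA1 at E10.5 and for Prrx2 in PA1 at E9.5.

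Other genes of arch mesenchyme are given from 3 lists. Of 24 homeobox relatives of the paired class, 13 were tested. In wildtype at E10.5, where 1.52% of all genes differed between the arches, none was higher and 4 were lower in PA2, with a list median of -0.31 on the log2 scale against -0.01 over all genes. Pitx1, a gene of the lower jaw, had a mean of 48.3 CPM in PA1 and 0.623 in PA2 (difference -4.93 ± 0.36, adjusted p 2.07e-16). Between E9.0 and E10.5, 3 of the 13 rose and 6 fell in wildtype PA1, where 42.5% of all genes changed. Gsc, active in jaw mesenchyme, rose by 3.32 ± 0.30, while Otx2, a gene of the anterior head, fell by 4.14 (SE 0.27). The list median was -0.51, against 0.00 over all genes.

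Of 33 other transcription factors of arch mesenchyme, all tested, 2 were higher and 5 lower in wildtype PA2 at E10.5 (list median -0.08). Lhx6 and Lhx8, genes of oral jaw mesenchyme, had means of 34.5 and 83.5 CPM in PA1 and 2.13 and 8.73 in PA2, and log2 differences of -3.48 ± 0.34 and -3.14 ± 0.42. Meox1 was the other way round, at 1.38 CPM in PA1 and 6.04 in PA2 (1.55 ± 0.43, adjusted p 0.0397). With the label in PA2 at E10.5, 3 of the 33 were higher and 2 lower, where 10.3% of all genes passed. Lhx6 was among the higher, by 1.46 ± 0.34 (0.00245), and Meox1 among the lower. Of the 13 relatives of the first list 1 was higher, Pitx1 by 2.15 ± 0.36 (3.54e-05), and 0 were lower. At that stage the label and the library division cannot be told apart. At E10.0 in PA2 neither Lhx6 nor Pitx1 was among the genes that passed, and Meox1 was the single one of the 33 that did (-1.71 ± 0.33, 0.00661). Of 23 signals and receptors, 0 were higher and 1 was lower in wildtype PA2 at E10.5 by limma: Fgf8, a signal from arch epithelium, at 20.2 CPM in PA1 and 4.81 in PA2 (-1.88 ± 0.24, 9.85e-08). Between E9.0 and E10.5, 5 of the 23 rose and 12 fell in wildtype PA2, where 36.9% of all genes changed. Pdgfra, a receptor of mesenchyme, rose by 2.06 ± 0.19 and Edn1, a signal for the lower jaw, fell by 3.33 (SE 0.28).

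The genes whose pattern was most like each member were read as Pearson correlations over the 68 libraries on log2(CPM + 1). They are a description with no p, since the libraries share embryos, stages and the library division. For Prrx1 they were Ddr2 (r 0.923), Mab21l1 (0.920) and Ccp110 (0.901). Around the group means the values were 0.726, 0.819 and 0.634, so these genes also moved with Prrx1 between replicates. For Prrx2 they were Id3 (0.891), Tlx1 (0.822) and Id1 (0.803), where Id1 and Id3 are inhibitors of bHLH factors that respond to BMP signals. For Alx4 they included AI606473 (0.832) and Lhx6 (0.818), and around the group means these values were 0.370 and 0.226. For Shox2 they were Slitrk6 (0.811), Zmat4 (0.809) and Eya4 (0.807). Alx1 had no close match: the highest were Creb5 (0.652), Sh3bgrl3 (0.549) and Pcbd2 (0.545). Among the members themselves, Alx4 and Shox2 had the highest value (0.651, and -0.01 around the group means), and Prrx1 and Prrx2 had -0.38 (0.08 around the group means).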

How the data were processed

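RNA from 68 hand-dissected arches was extracted with TRIzol, made into cDNA with a SMART-Seq v4 low-input kit and into libraries with Nextera XT, per the labels' protocols. The submitters' processing notes name bcl2fastq 2.18, TopHat2 2.1.1, R 3.3.2 and the mm10 build, without saying what each did, and the counting tool and use of strand are not given in the sources used here. The deposited table holds CPM, a depth-scaled signal per Ensembl gene, for 21948 genes. The authors' scaling gave column totals of 926298.2 to 1051958.9, so they exceed what CPM can sum to in part of the libraries, and the unit was recorded as signal where the plan had assumed CPM. The test is the same for both. Whole reads were recovered from the steps of the values: 100% came out whole within 0.01, and they sum to 8912251 to 20619153 per library. Without molecular identifiers, 3 reads, or 0.140 to 0.328 CPM, is a floor for counting error only. Gene names and positions are from GENCODE M21, and 21921 genes had a symbol.

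Genes with at least 1 CPM in 3 libraries (18428) entered a fit of log2(CPM + 1) with limma 3.58.1 in R 4.3.3, with 16 group means over 68 libraries, a trended variance and Benjamini-Hochberg adjustment over all genes within each of 36 contrasts. Every p printed with a difference is such an adjusted p unless stated, and the threshold was 0.05. The fit was first tested on simulated data. Alternatives were a pseudocount of 0.25 or 5, median-of-ratios scaling, no filter or one of 5 CPM, fits of the compared groups alone, a block per embryo, edgeR 4.0.16 quasi-likelihood on the recovered reads, and leaving out each library. Leaving out the 6 libraries with yolk sac markers was added after seeing the data. PA1 and PA2 with the same number come from 1 embryo, per the series' design text. Their deviations from the group means had a median correlation of 0.347 over 33 pairs. Between PA1 and PA2 libraries of different embryos with the same label and stage, the median was -0.12 over 116 pairs. The block was fixed for differences between arches and random for the rest. No 2 replicates agreed within sampling noise.

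The members, their relatives and the marker lists were chosen with earlier results of these data known. From each list the text names genes with the largest differences past the threshold, at most 3 per direction and contrast. As genes most like a member it names the 3 with the highest correlation among genes of at least 5 CPM on average. Some genes that these rules would name are not reported here.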

Additional observations from a re-analysis of the deposited data

Results flagged for a closer look

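In 5 of 60 pairs of a gene and a group, 5 genes in each of the 12 groups of 4 or 5 libraries, 1 library stood far from the rest of its group for its range. Chance flags about 1 in 20 such pairs. Alx1 in PA2 labelled Hoxa2-/- at E9.0 was 12.3 CPM in replicate 4 and 6.74 to 7.499 in the others. Alx4 in PA1 labelled Hoxa2-/- at E9.0 was 6.69 CPM in replicate 4 and 4.50 to 4.66 in the others. Alx4 in wildtype PA2 at E9.5 was 12.3 CPM in replicate 1 and 8.81 to 8.94 in the others. Prrx1 in PA2 labelled Hoxa2-/- at E9.5 was 131 CPM in replicate 4 and 55.3 to 62.7 in the others, and PA1 of the same embryo also held the most Prrx1 of its group. Prrx2 in PA1 labelled Hoxa2-/- at E9.0 was 151 CPM in replicate 2 and 123 to 128 in the others.

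The difference of E10.5 against E9.0 was unequal in PA2 and PA1 in 7 tests of the difference itself by limma. On the log2 scale it was -2.79 for Alx1, -3.12 for Alx4, -0.70 for Prrx2 and -1.79 for Shox2 in wildtype. With the label Hoxa2-/- it was -1.88 for Alx1, -1.38 for Alx4 and -0.999 for Prrx2.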

How the results depend on the processing

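Settings were compared for 83 member tests, a part of all member tests that includes every one that passed, so their share is not a pass rate. As reported, 63 of them passed the threshold. Of the 63, 42 passed in the same direction under every alternative and without each library in turn. None of the 63 changed sign. The number of member tests in which the label difference was unequal between the arches was 0 as reported and 1 with a pseudocount of 5, 1 with only the compared groups and 1 with the replicate block. Without each library in turn, the label difference passed in 0 to 3 tests in PA2 and in 1 to 4 tests in PA1. Alx1 with the label in PA2 at E10.0, 0.16 as reported and not past the threshold, turned to -0.36 without the libraries with yolk sac markers and ranged from -0.13 to 0.39 when 1 library was left out. The cause was not tested. With the embryo as a block, 11 tests passed between arches in wildtype and 8 with the label, 2 for the label in PA2, 3 for it in PA1, 17 between E9.0 and E10.5, 18 between neighbouring stages and 8 for the arch difference in that change. Calls that the block changed stand beside the results for Prrx1, Prrx2 and Shox2.

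Each of the 5 label calls, 4 at E10.5 with 3 libraries a group and 1 at E9.5 with 5, was lost without at least 1 of its libraries. Depth limits Shox2 before E10.0, where a difference was not detectable at a few reads per library. The label Hoxa2-/- and the division of the libraries coincide at 3 of 4 stages and cannot be told apart there.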
